A study of Mus musculus with 21 samples.

Results

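Oocytes of old mice that had received unsorted umbilical cord cells were compared with oocytes of old mice that had received none. The rule took every oocyte library of these groups, giving 2 Aged + Unsorted and 2 Aged libraries, 4 of the 21 libraries of the series, which also holds Young, Aged + LRP1high and Aged + LRP1low oocytes and granulosa cells. All 4 libraries came from female ICR mice aged 18 months. In the Aged + Unsorted mice, human umbilical cord mesenchymal stem cells (UC-MSCs) that had not been separated by surface LRP1 were injected under the ovarian capsule, and oocytes were taken 3 weeks later. The Aged mice are described as untreated. A sham operation, and the number of mice and oocytes behind each library, were not given in the sources used here. The transplanted cells and the operation therefore cannot be told apart. The p-values measure only the spread between libraries, estimated within the 5 groups of all 12 oocyte libraries. The oocytes were at metaphase II, and their follicle cells and zona pellucida had been removed with enzymes before lysis. Expression was measured by RNA sequencing of polyadenylated RNA and is given as FPKM, fragments scaled to transcript length in kilobases and to the mapped fragments of the library, a scale that corrects for transcript length and can be compared between genes.

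A metaphase II oocyte is a large arrested cell that transcribes little, and it lives on messenger RNA stored during its growth. Those stores encode the zona pellucida glycoproteins, paracrine factors for the surrounding cumulus cells, proteins that hold messengers silent until they are translated, and the maternal proteins that carry the first cleavages. Its many mitochondria each hold a small circular genome that encodes core subunits of the respiratory chain, and the other subunits come from the nucleus. Oocytes of old females are known for chromosome segregation errors and altered mitochondria.

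The 2 Aged libraries were unlike each other. Over 10 oocyte marker genes the median was 11.6 FPKM in Aged replicate 1 and 716 FPKM in Aged replicate 2, against 647 and 1001 FPKM in Aged + Unsorted replicates 1 and 2. Aged replicate 1 was therefore nearly without the RNA that defines its labelled cell type, as were 3 of the 8 oocyte libraries of the other groups (Young replicate 1 and both Aged + LRP1low libraries, medians of 0.892, 5.02 and 7.77 FPKM). It also listed the most genes at 1 FPKM or more, 27970 against 8177 to 11916 in the other 3. Predicted genes with a Gm number took 65.0% of its TPM, against 7.83% to 28.7% in the other 3. TPM is transcript abundance scaled to the same total in every library. The single gene Gm10800 took 42.6% of TPM in Aged replicate 1 and 17.4% in Aged replicate 2. In Aged + Unsorted it took 2.70% in replicate 1 and was not among the 10 highest genes of replicate 2. The aligned sequence behind the libraries was 0.578 and 0.791 gigabases in Aged and 0.984 and 2.96 gigabases in Aged + Unsorted. The part of these differences in the results was not tested. The medians of the gene lists are therefore also given against Aged replicate 2 alone, and each library's own value is given for the genes described.

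Zp3, the zona pellucida glycoprotein that serves as a sperm receptor (ENSMUSG00000004948.12, plus strand, chr5:135980099-135988624, GRCm38), shows this pattern. It measured 6.23 FPKM in Aged replicate 1, 972 FPKM in Aged replicate 2, and 503 and 1228 FPKM in the Aged + Unsorted libraries, so the groups overlapped. Against both Aged libraries the log2 difference, Aged + Unsorted minus Aged on the log2(FPKM + 1) scale, was 3.23 ± 2.60 (SE, limma adjusted p = 0.478). Against Aged replicate 2 alone it was -0.31. The promoter of Zp3 is shown because the zona genes are a textbook case of promoters bound through E-boxes by the oocyte factor FIGLA. It is the RefSeq sequence (GRCm38.p6, plus strand, chr5:135979855-135980154), with capitals marking each CANNTG, a pattern that reads the same on both strands.
Zp3: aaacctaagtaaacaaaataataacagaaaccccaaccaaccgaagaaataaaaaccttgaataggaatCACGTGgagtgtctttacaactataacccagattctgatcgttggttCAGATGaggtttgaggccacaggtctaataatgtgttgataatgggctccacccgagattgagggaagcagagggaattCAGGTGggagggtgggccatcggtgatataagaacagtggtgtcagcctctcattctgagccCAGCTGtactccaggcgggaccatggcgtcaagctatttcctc
This window holds 4 such matches. Of 32851 mouse promoters of the same length, 23756 (72.3%) held at least 1 and 2131 (6.49%) at least 4, so a single match is common and says nothing about binding. Zp1 and Zp2, whose products join ZP3 in the zona, are named only.

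Among the other markers, Gdf9, a growth factor by which the oocyte directs its cumulus cells, measured 9.04 and 1245 FPKM in Aged and 1467 and 1815 FPKM in Aged + Unsorted. Its partner Bmp15 measured 10.5 and 378 FPKM in Aged and 487 and 774 FPKM in Aged + Unsorted. Ooep, which encodes a protein of the subcortical maternal complex, measured 12.7 and 459 FPKM in Aged and 791 and 689.5 FPKM in Aged + Unsorted. For these 3 of the 10 markers both Aged + Unsorted libraries lay above both Aged libraries, and for Zp1, Zp2, Zp3, Oosp1, Dppa3, H1foo and Nlrp5 they lay on both sides of Aged replicate 2. The log2 difference of Gdf9 was 3.87 ± 2.33 with both Aged libraries (SE, limma adjusted p = 0.436) and 0.39 against Aged replicate 2.

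**Figure D1:**
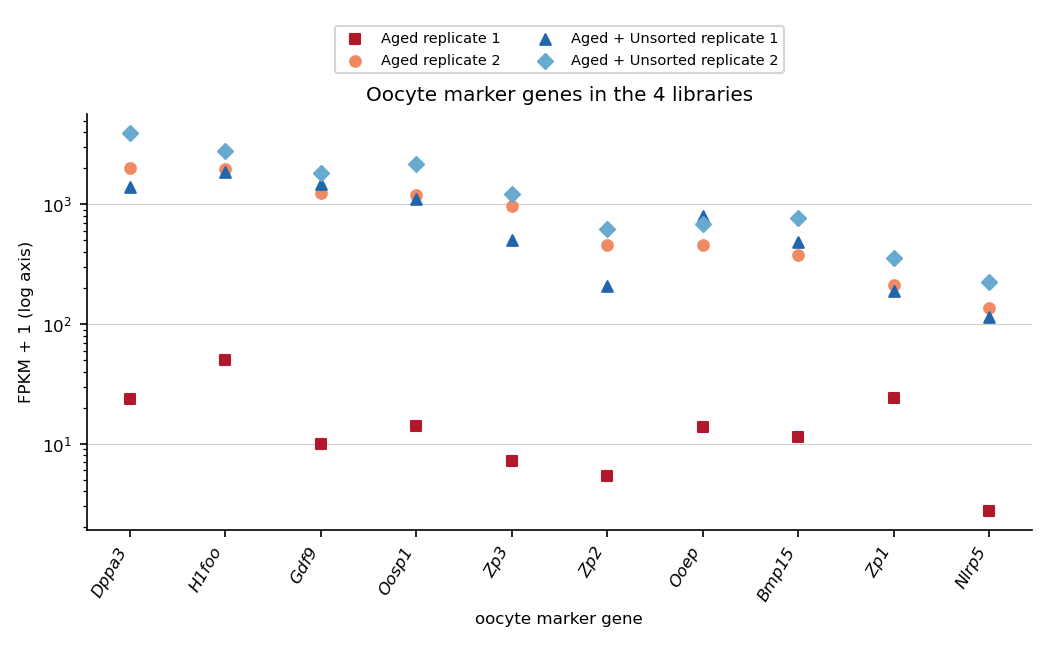
FPKM + 1 (log axis) of 10 oocyte marker genes, with a point for each of the 4 libraries. Aged replicate 1 lies far below the other 3 libraries for every marker (median 11.6 FPKM), and Aged replicate 2 (716 FPKM) lies between or close to the Aged + Unsorted libraries (647 and 1001 FPKM).

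To ask which genes differed between the groups as a whole, 28004 genes with a mean of at least 1 FPKM over the 12 oocyte libraries were tested with limma, requiring a fold change over 1.5 and a Benjamini-Hochberg adjusted p under 0.05. No gene was called (0%), and the smallest adjusted p was 0.0741, or 0.687 with the 4 libraries fitted alone. At an unadjusted p under 0.05, 476 genes (1.7%) were higher and 1971 (7.04%) lower in Aged + Unsorted. The median log2 difference over all tested genes was -0.86. It was -1.48 against Aged replicate 1 and 0.00 against Aged replicate 2, and quantile normalization brought it to 0.02. With 2 libraries against 2, an exact permutation test of a single gene cannot go below p = 0.333.

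Both Aged + Unsorted libraries lay above both Aged libraries in 2875 genes (10.3%) and below both in 3165 (11.3%). The counts of gene groups are read against these shares and against the shares of genes at a like level. Against Aged replicate 2 alone, 19.1% of genes lay above and 18% below, and against Aged replicate 1 alone, 18.2% above and 56.9% below. The shares depended on level. Among 17563 genes with a mean of 1 to 10 FPKM over the 4 libraries, 4.73% lay above and 16.0% below. Among 4612 genes with a mean of 10 to 100 FPKM, 34.8% lay above and 4.66% below. Among 577 genes with a mean of at least 100 FPKM, 45.1% lay above and 7.80% below, with a median log2 difference of 4.21 against Aged replicate 1 and 0.32 against Aged replicate 2. Abundant oocyte genes thus had a high background share of their own. A set of 1584 genes had a mean of at least 10 FPKM in both Young oocytes and granulosa cells. Of these, 678 (42.8%) lay above and 62 (3.91%) below, with a median log2 difference of 3.38 against Aged replicate 1 and 0.34 against Aged replicate 2.

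Leaving out a single library decided the number of calls. Leaving out 1 of the 4 compared libraries, or the 4 poor in oocyte RNA, left 1 library in a group, which has no spread of its own. Without Aged replicate 1, 9 genes were higher and 854 lower in Aged + Unsorted. Without Aged replicate 2, 398 were higher and 10280 lower, and 281 of the lower genes were called in both of these fits. Of the 854 genes called lower without Aged replicate 1, 640 (74.9%) were listed at 0 FPKM in both Aged + Unsorted libraries, 435 (50.9%) were under 1 FPKM in the left-out library, and 224 (26.2%) were protein coding, against 59.9% of all tested genes. Without Aged + Unsorted replicate 1 no gene was called, and without Aged + Unsorted replicate 2, 54 were higher and none lower. Without the 4 oocyte libraries poor in oocyte RNA, 11 were higher and 878 lower.

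**Figure D2:**
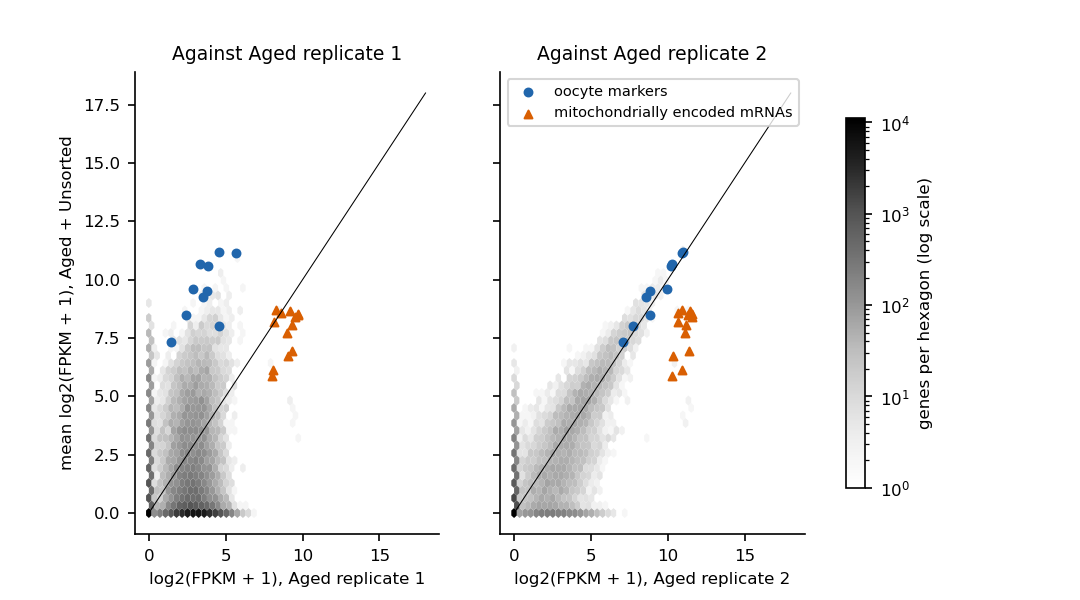
Mean log2(FPKM + 1) of the Aged + Unsorted libraries against Aged replicate 1 (left) and Aged replicate 2 (right), with hexagons shaded by the number of genes, oocyte markers as circles and mitochondrially encoded protein genes as triangles. The markers lie far above the diagonal on the left and along it on the right, and all 13 mitochondrially encoded protein genes lie below it on the right.

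Of the oocyte's own gene groups, the zona and secreted factors, the maternal-effect genes and the Skp1a and Fbxw genes had median levels of at least 227 FPKM in both Aged + Unsorted libraries and in Aged replicate 2, and the receptors of at most 4.74 FPKM, and none of their members was called with all libraries by limma. At an unadjusted p under 0.05 no list of this kind had more than 1 gene in either direction. Among 10 zona and oocyte-secreted factors, 2 lay above both Aged libraries and none below, with a median log2 difference of 5.48 against Aged replicate 1 and 0.09 against Aged replicate 2. Among 16 genes of the subcortical maternal complex and other maternal-effect genes, 8 (50%) lay above and none below (medians 5.05 and 0.33). Of all genes at a mean of at least 100 FPKM, 45.1% lay above. Nlrp4f, whose protein belongs to the NLRP family of the maternal complex, measured 9.20 and 189.6 FPKM in Aged and 422 and 448 FPKM in Aged + Unsorted. Zfp57, which keeps DNA methylation at imprinted genes, measured 1.76 and 236 FPKM in Aged and 401 and 413 FPKM in Aged + Unsorted. Both were higher in both Aged + Unsorted libraries, with log2 differences against Aged replicate 2 of 1.19 and 0.79.

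Genes that store and release messengers stood furthest above Aged replicate 2 among the oocyte lists. Of 19, 10 (52.6%) lay above both Aged libraries and 2 below, beside 45.1% above among all genes at a mean of at least 100 FPKM. The median log2 difference of the 19 was 3.21 against Aged replicate 1 and 0.91 against Aged replicate 2. Btg4, the adaptor that brings the deadenylase to maternal messengers, measured 65.5 and 834 FPKM in Aged and 5075 and 1157 FPKM in Aged + Unsorted. Cpeb1, which binds the cytoplasmic polyadenylation element, measured 60.2 and 221 FPKM in Aged and 580.1 and 337 FPKM in Aged + Unsorted. Eif4e1b, an oocyte form of the cap-binding protein, was listed at 0 and at 57.0 FPKM in Aged and measured 149.6 and 77.5 FPKM in Aged + Unsorted. For these 3 genes both Aged + Unsorted libraries were above both Aged libraries, with replicate 1 the higher. Tut7, a terminal uridylyltransferase that marks messengers for decay, had the opposite order, with 25.5 and 10.7 FPKM in Aged and 0.166 and 6.23 FPKM in Aged + Unsorted (log2 difference -2.60 ± 1.09, SE, limma adjusted p = 0.436).

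Of 28 meiotic cell cycle genes, 14 (50%) lay above both Aged libraries and none below. Among all genes, 34.8% lay above at a mean of 10 to 100 FPKM and 45.1% at 100 FPKM or more. The median log2 difference of the 28 was 3.93 against Aged replicate 1 and 0.54 against Aged replicate 2. Cdk1, the kinase of maturation promoting factor, measured 0.649 and 11 FPKM in Aged and 71.0 and 31.5 FPKM in Aged + Unsorted. Its log2 difference was 3.44 ± 1.52 (SE, limma adjusted p = 0.436) and was 2.01 against Aged replicate 2. Ccnb2, a B-type cyclin partner of that kinase, was listed at 0 and at 47.5 FPKM in Aged and measured 92.6 and 92.5 FPKM in Aged + Unsorted. Both Aged + Unsorted libraries stood above both Aged libraries for Cdk1 and Ccnb2. Pttg1, which encodes securin, was among the most abundant of the list, with 92.1 and 2005 FPKM in Aged and 2235 and 2939.7 FPKM in Aged + Unsorted.

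Among 17 cohesin and chromosome segregation genes, 6 lay above both Aged libraries and 1 below (medians 1.88 against Aged replicate 1 and 0.22 against Aged replicate 2). Sgo1, of the shugoshin family that protects centromeric cohesin, measured 2.40 FPKM and was listed at 0 in Aged. It measured 15.3 and 10.3 FPKM in Aged + Unsorted. Smc3, a core cohesin subunit, measured 1.02 and 39.5 FPKM in Aged and 102 and 72.9 FPKM in Aged + Unsorted. Stag3, the meiotic cohesin subunit, measured 5.86 and 4.15 FPKM in Aged, and was listed at 0 and at 0.101 FPKM in Aged + Unsorted. It was the only member of the list with both Aged + Unsorted libraries below both Aged libraries (log2 difference -2.50 ± 0.74, SE, limma adjusted p = 0.183), at low FPKM in all 4.

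Of 15 oocyte transcription factors, 3 lay above and 1 below (medians 1.63 and 0.06). Nobox, a homeobox regulator of oocyte genes, was listed at 0 and at 53.1 FPKM in Aged and measured 176 and 103 FPKM in Aged + Unsorted. Sohlh2, a factor of early oocyte differentiation, was listed at 0 in either Aged library and measured 3.41 and 3.96 FPKM in Aged + Unsorted (limma adjusted p = 0.23). Among 19 receptors and channels for follicle signals, 1 lay above both Aged libraries and 2 below, and the median difference was near 0 against either Aged library (-0.01 and -0.04). Kit, the receptor for the granulosa ligand KITL, measured 9.45 and 50.9 FPKM in Aged and 19.8 and 53.8 FPKM in Aged + Unsorted, an overlap. Insr, the insulin receptor, measured 7.23 and 2.21 FPKM in Aged and 0.118 and 2.06 FPKM in Aged + Unsorted, below both.

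Skp1a, Cul1 and the Fbxw genes encode parts of a ubiquitin ligase, and the Fbxw cluster is known for its expression in oocytes. Of 16, 8 (50%) lay above both Aged libraries and none below (medians 4.62 against Aged replicate 1 and 0.34 against Aged replicate 2). The share above among all genes at a mean of at least 100 FPKM was 45.1%. Fbxw28 measured 30.0 and 583 FPKM in Aged and 1219.8 and 1341 FPKM in Aged + Unsorted. Skp1a, the adaptor subunit, measured 159 and 1861 FPKM in Aged and 7533 and 2018 FPKM in Aged + Unsorted. The Aged + Unsorted libraries were close to each other for Fbxw28, whereas for Skp1a replicate 2 was near Aged replicate 2 and replicate 1 well above it.

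Among 10 DNA methylation genes, 2 lay above and 2 below, with medians of 1.46 against Aged replicate 1 and 0.20 against Aged replicate 2. Tet2, which oxidizes methylcytosine, measured 13.1 and 5.95 FPKM in Aged and 0.274 and 0.860 FPKM in Aged + Unsorted, below both (log2 difference -2.69 ± 0.84, SE, limma adjusted p = 0.22). Tet3, the family member of the oocyte, measured 13.0 and 84.6 FPKM in Aged and 110.1 and 115 FPKM in Aged + Unsorted, above both. Dnmt1, the maintenance methyltransferase, measured 37.9 and 549 FPKM in Aged and 513 and 287 FPKM in Aged + Unsorted, within the range of the Aged pair. The median difference of each oocyte list named above stayed positive with quantile normalization and with equal sums outside mitochondrial and Gm-number genes, except the receptors, at -0.41 with equal sums.

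**Figure D3:**
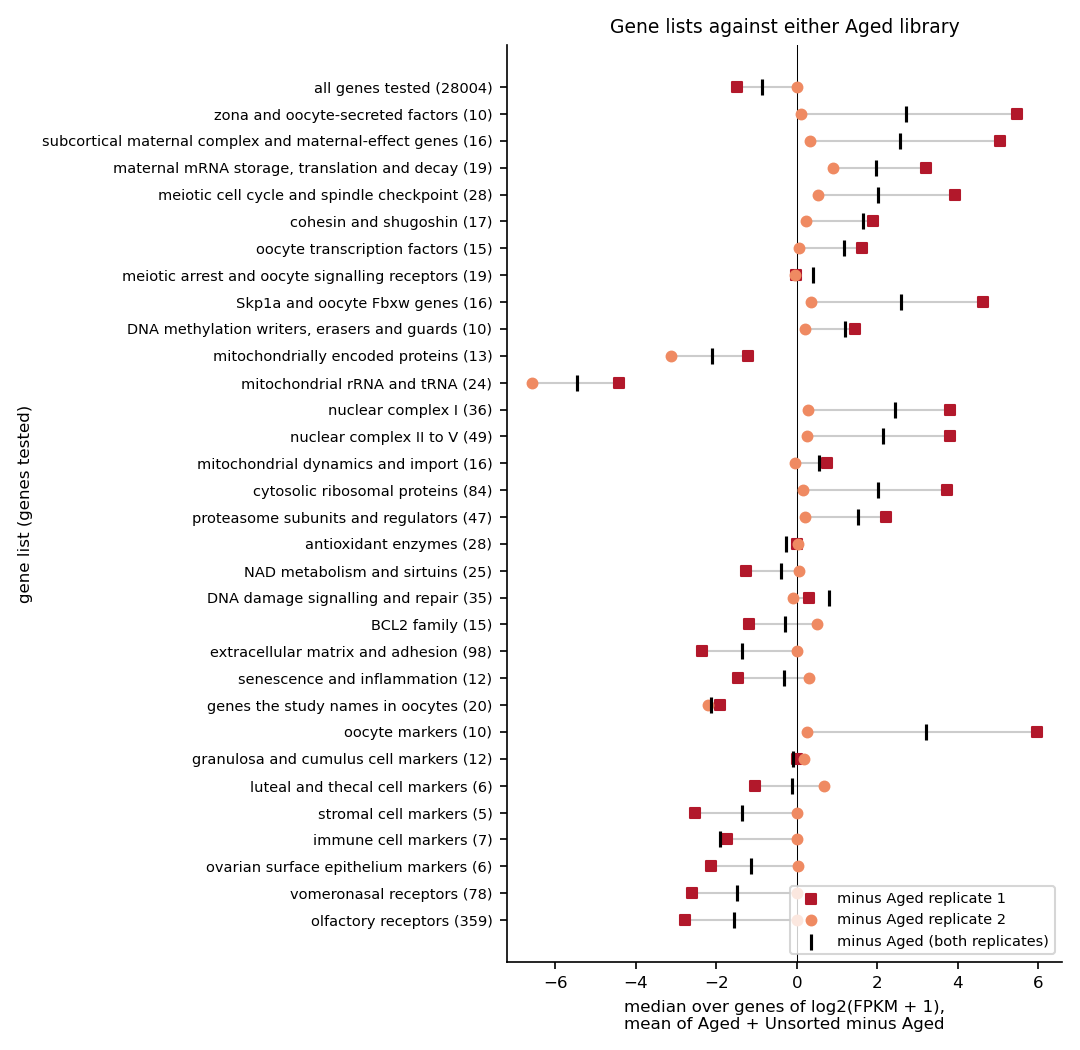
Median log2(FPKM + 1) difference of each gene list, mean of the Aged + Unsorted libraries minus Aged replicate 1 (squares), Aged replicate 2 (circles) or both (bars), with the number of genes tested beside each list. The oocyte lists other than the receptors (-0.01) lie to the right against Aged replicate 1, at medians of 1.46 to 5.96, and between 0.06 and 0.91 against Aged replicate 2, while the mitochondrially encoded lists lie to the left against either.

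Transcripts of the mitochondrial genome were lower in Aged + Unsorted than in either Aged library for most genes. Of the 13 protein-coding genes, 9 lay below both Aged libraries and none above, against 11.3% of all genes below, all 13 lay below Aged replicate 2, against 18% of all genes, and 9 lay below Aged replicate 1, against 56.9%. The sum of their FPKM was 6798 and 28341 in Aged and 2069.7 and 5875 in Aged + Unsorted. mt-Nd5, a proton-pumping subunit of complex I, measured 642 and 2676 FPKM in Aged and 131 and 111 FPKM in Aged + Unsorted. mt-Nd3, another subunit of that complex, measured 261 and 1239 FPKM in Aged and 40.4 and 81.3 FPKM in Aged + Unsorted. Their log2 differences were -3.43 ± 1.38 (SE, limma adjusted p = 0.429) and -3.29 ± 1.29 (SE, limma adjusted p = 0.411). mt-Co1, the catalytic subunit of cytochrome oxidase, overlapped, with 587 and 2808 FPKM in Aged and 246 and 664 FPKM in Aged + Unsorted.

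Of the 24 mitochondrial ribosomal and transfer RNA genes, 21 lay below both Aged libraries, none above, and 24 below Aged replicate 2. mt-Tr, the transfer RNA for arginine, measured 292 and 2198 FPKM in Aged and 5.48 and 2.2 FPKM in Aged + Unsorted (log2 difference -7.46 ± 1.67, SE, limma adjusted p = 0.099). The exceptions were mt-Ts1 and both ribosomal RNAs, which overlapped. mt-Rnr2, the large ribosomal RNA, measured 712 and 4101 FPKM in Aged and 1817 and 2269 FPKM in Aged + Unsorted, between the Aged libraries. Transfer RNA genes adjoin the protein genes on long precursors and are shorter than most sequenced fragments. Fragments there therefore cannot be assigned to a single mature RNA.

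The median log2 difference of the 13 protein-coding genes was -2.12, with -1.21 against Aged replicate 1 and -3.13 against Aged replicate 2. It was -3.38 with quantile normalization, -3.08 with equal sums outside mitochondrial and Gm-number genes and -1.98 on TPM, so the direction did not turn with the scale. No gene of either list was called with all libraries by limma, and 5 protein-coding and 20 RNA genes were lower at an unadjusted p under 0.05. Calls of mitochondrial genes from fits that kept 1 Aged library are not counted here. Mitochondrial transcripts took 16.0% of TPM in Aged replicate 2, above all the other oocyte libraries, 4.13% in Aged replicate 1, and 1.58% and 2.16% in Aged + Unsorted, within the 0.707% to 3.50% of the 8 libraries of the other groups. The difference against Aged replicate 2 thus rests on a library that stood apart in this measure. In bulk libraries fewer cells of a type and less RNA per cell cannot be told apart, and the same holds for mitochondria.

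**Figure D4:**
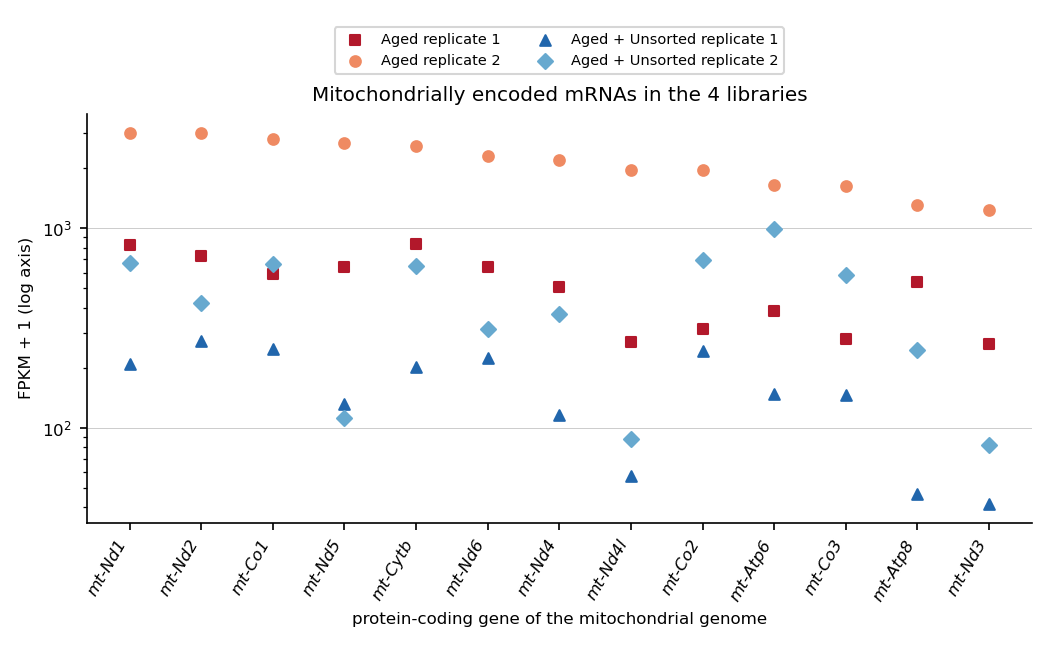
FPKM + 1 (log axis) of 13 mitochondrially encoded protein genes in each of the 4 libraries. Aged replicate 2 is the highest library for every gene, and both Aged + Unsorted libraries lie below both Aged libraries for 9 of the 13, such as mt-Nd5 at 131 and 111 FPKM against 642 and 2676 FPKM.

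Nuclear genes of the respiratory chain lay above both Aged libraries about as often as other genes of their level (34.8% of all genes at a mean of 10 to 100 FPKM and 45.1% at 100 FPKM or more). None was called by limma, and 8 were higher at an unadjusted p under 0.05, 2 of complex I and 6 of the other complexes. Of 36 nuclear complex I genes, 14 lay above both Aged libraries and none below (medians 3.80 against Aged replicate 1 and 0.27 against Aged replicate 2), and of 49 genes of complexes II to V, 22 lay above and none below (3.79 and 0.24), shares of 38.9% and 44.9%. Ndufb2, a complex I subunit, measured 6.39 and 12.3 FPKM in Aged and 144 and 119.7 FPKM in Aged + Unsorted. Cox5b, a cytochrome oxidase subunit, was listed at 0 and at 25.6 FPKM in Aged and measured 172 and 109 FPKM in Aged + Unsorted (log2 difference 4.74 ± 1.58, SE, limma adjusted p = 0.26). Uqcrh, the hinge subunit of complex III, measured 0.866 and 259 FPKM in Aged and 527 and 530.3 FPKM in Aged + Unsorted. All 3 were above both Aged libraries, by the widest margin over Aged replicate 2 for Ndufb2.

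Ndufs7, an iron-sulfur subunit of complex I, was listed at 0 in either Aged library and measured 2.74 and 37.6 FPKM in Aged + Unsorted. The fission genes Fis1 and Dnm1l were also above both. Fis1 measured 4.35 and 20.2 FPKM in Aged and 49.1 FPKM in both Aged + Unsorted libraries, and Dnm1l measured 2.13 and 28.2 FPKM in Aged and 65.7 and 44.0 FPKM in Aged + Unsorted. Of the 16 mitochondrial dynamics genes, 3 lay above and 2 below, and the median of 0.55 was -0.04 against Aged replicate 2 and -0.23 with equal sums.

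Of 84 ribosomal protein genes, 28 (33.3%) lay above both Aged libraries and 2 below. Of all genes, 34.8% lay above at a mean of 10 to 100 FPKM and 45.1% at 100 FPKM or more. The median log2 difference of the ribosomal protein genes was 3.73 against Aged replicate 1 and 0.16 against Aged replicate 2. Rpl35a measured 5.44 and 52.4 FPKM in Aged and 167 and 139 FPKM in Aged + Unsorted. Rpl10l, a form best known from the testis, measured 2.54 and 8.15 FPKM in Aged and was listed at 0 in both Aged + Unsorted libraries. Of 47 proteasome genes, 16 (34.0%) lay above and 2 below (medians 2.21 and 0.21), a share near that of all genes at 10 to 100 FPKM. Psmd10, an assembly chaperone, was listed at 0 and at 22 FPKM in Aged and measured 168 and 73.7 FPKM in Aged + Unsorted. Psmb10, a subunit of the immunoproteasome, had the opposite order, with 17.8 and 0.993 FPKM in Aged and 0 listed in both Aged + Unsorted libraries.

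Among single genes, the 15 higher in Aged + Unsorted with the smallest unadjusted p were taken from genes with a known symbol, separate groups and a mean of at least 10 FPKM over the 4 libraries. They had limma adjusted p from 0.0793 to 0.131, and 12 of them were listed at 0 in both Aged libraries. Map1lc3a, which encodes the autophagosome protein LC3A (chr2:155276297-155278073, GRCm38), was listed at 0 in either Aged library and measured 62.4 and 31.5 FPKM in Aged + Unsorted. Pabpn1, the nuclear poly(A)-binding protein (chr14:54892500-54898169), measured 5.68 and 0.206 FPKM in Aged and 189 and 83.0 FPKM in Aged + Unsorted (log2 difference 5.48 ± 1.19, SE, limma adjusted p = 0.0973). Pigf, an enzyme of GPI anchor synthesis, was listed at 0 in either Aged library and measured 162 and 118 FPKM in Aged + Unsorted. The groups were far apart for all 3. Of the 15, none was called with quantile normalization or without the Aged + LRP1low libraries. With no filter on mean FPKM 1 was called higher, on TPM 3, and on log2(FPKM + 10) 4. Fits without an Aged library or without the 4 libraries poor in oocyte RNA kept 1 Aged library, so their calls are not counted here.

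The rest of these 15 had various roles. Higd2a, a respiratory complex assembly factor, was listed at 0 in either Aged library and measured 59.4 and 72.1 FPKM in Aged + Unsorted. Ssu72, a phosphatase of RNA polymerase II, measured 1.10 FPKM and was listed at 0 in Aged, and measured 36.7 and 45.2 FPKM in Aged + Unsorted. Cops7a, a subunit of the COP9 signalosome, was listed at 0 in either Aged library and measured 95.3 and 32.2 FPKM in Aged + Unsorted. Tctex1d2, Fbxl2, Nme3, Smim19, Srrd, Tmem237, Tmem242 and Ccdc107 also stood at 0 in either Aged library, and Pmpcb, a subunit of the mitochondrial processing peptidase, was at 1.28 FPKM and 0. A gene listed at 0 in a file without counts can be a failed estimate. Of these 15 genes, 12 overlap another annotated gene on either strand, as Pabpn1 overlaps Gm20521 and Pigf overlaps Rhoq. Fragments may have been assigned between overlapping genes, which was not tested. The share of all tested genes with such an overlap was not determined, so the count does not set these genes apart.

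The 15 genes lower in Aged + Unsorted with the smallest p had limma adjusted p from 0.0741 to 0.108, log2 differences from -4.88 to -3.05 and no more than 2.02 FPKM in any Aged + Unsorted library. Ighv8-2, an immunoglobulin heavy chain variable gene (chr12:114462291-114462730, GRCm38), measured 27.0 and 29.9 FPKM in Aged and was listed at 0 in both Aged + Unsorted libraries (log2 difference -4.88 ± 0.62, SE, limma adjusted p = 0.0741). Cd37, a tetraspanin of B cells, measured 19.996 and 20.7 FPKM in Aged and was also listed at 0 in both Aged + Unsorted libraries (-4.42 ± 0.66, limma adjusted p = 0.0741). Clstn3, a synaptic calsyntenin, had 21.9 and 29.5 FPKM in Aged and 0 listed in Aged + Unsorted. Both Aged libraries thus stood above both Aged + Unsorted libraries, as the choice of these genes required. Slc25a12, the mitochondrial aspartate-glutamate carrier, measured 19.3 and 34.9 FPKM in Aged and 0.463 and 0.612 FPKM in Aged + Unsorted. Hoxa5, a homeobox gene, measured 12.5 and 28.7 FPKM in Aged, and Trim9, a neuronal ubiquitin ligase, 29.8 and 11.6 FPKM. Both Aged + Unsorted libraries were listed at 0 for Hoxa5 and stood at 0 and 0.0623 FPKM for Trim9.

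Of these 15, none was called without the Aged + LRP1low libraries. With no filter on mean FPKM 14 were called lower, on TPM 14, and on log2(FPKM + 10) 12. Fits without an Aged library or without the 4 libraries poor in oocyte RNA kept 1 Aged library, so their calls are not counted here. With quantile normalization 1 was called (Ighv6-3). In the Aged + LRP1low libraries, which were also poor in oocyte markers, they measured 0.725 to 22.2 FPKM. Another annotated gene on either strand overlaps 9 of the 15, as Tead2 overlaps Cd37, and the share over all tested genes was again not determined.

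**Figure D5:**
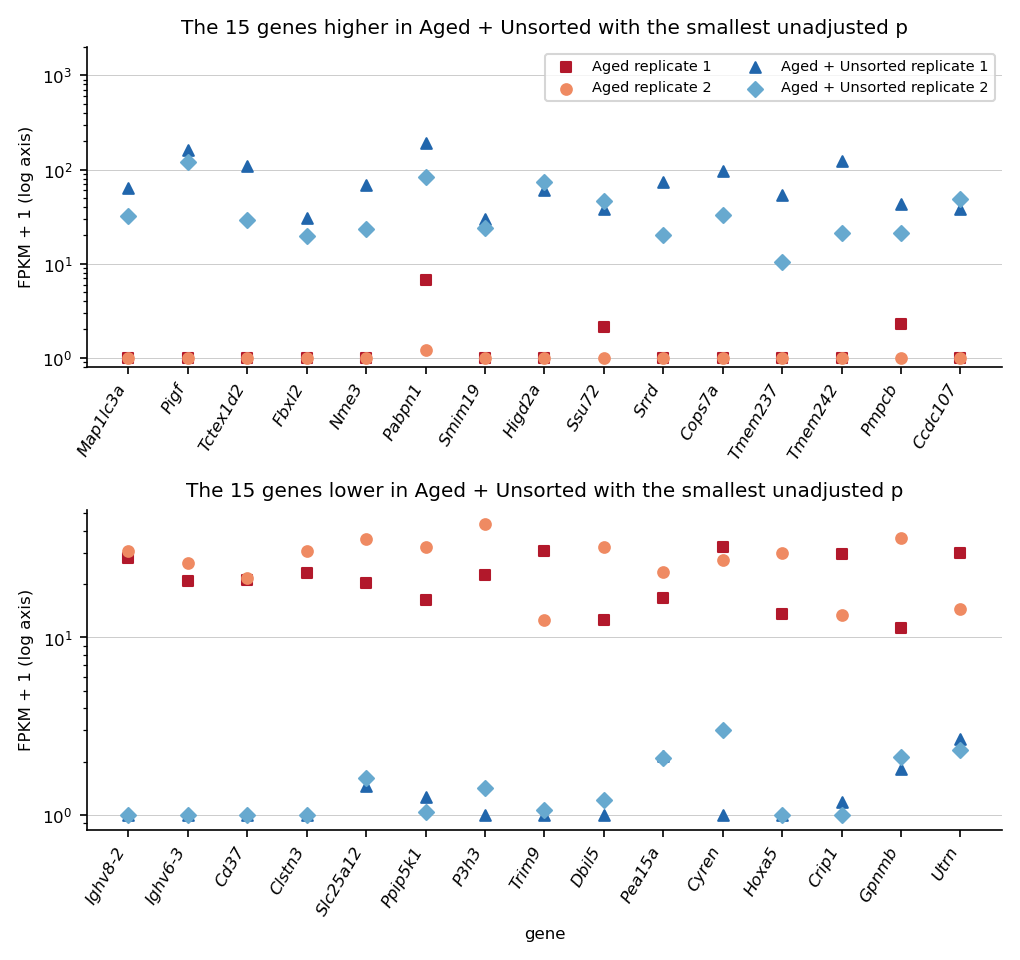
FPKM + 1 (log axis) in each of the 4 libraries for the 15 genes higher (top) and the 15 genes lower (bottom) in Aged + Unsorted with the smallest unadjusted p. Of the upper genes, 12 are listed at 0 in both Aged libraries, and the lower genes stand between 10.3 and 42.4 FPKM in Aged and at or below 2.02 FPKM in Aged + Unsorted.

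Of 20 genes that the study names for the oocytes, 14 lay below both Aged libraries and none above. The study chose them on these samples, so their count is not independent evidence of a direction. The median log2 difference was -2.13, with -1.90 against Aged replicate 1 and -2.21 against Aged replicate 2. None of the 20 was called with all libraries by limma. Bst1, an ectoenzyme that consumes NAD, measured 21.7 and 11.2 FPKM in Aged and was listed at 0 in both Aged + Unsorted libraries (log2 difference -4.06 ± 0.81, SE, limma adjusted p = 0.0859). Nadk, the NAD kinase, measured 20.5 and 36.6 FPKM in Aged and 4.74 and 21.3 FPKM in Aged + Unsorted, an overlap. Usp10 and Usp21 encode deubiquitinases. Usp10 measured 46.7 and 35.2 FPKM in Aged and 8.07 and 28.8 FPKM in Aged + Unsorted, below both. Usp21 measured 19.3 and 47.4 FPKM in Aged and 0.973 and 20.6 FPKM in Aged + Unsorted, an overlap.

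Extracellular matrix and adhesion genes were at low FPKM in the oocyte libraries. Of 98 tested, 4 lay above both Aged libraries and 31 below, with a median log2 difference of -1.36, which was -2.37 against Aged replicate 1, 0.00 against Aged replicate 2 and -0.13 with quantile normalization. Among the tested genes with a mean of 1 to 10 FPKM over the 4 libraries, 16.0% lay below. The matrix share below, 31.6%, was between the 25.9% of olfactory and 35.9% of vomeronasal receptor genes tested. Those receptors serve further below as a measure of low signal. Col26a1, a collagen, measured 17.9 and 8.69 FPKM in Aged, and 0.110 FPKM and 0 in Aged + Unsorted. Itga7, a laminin-binding integrin chain, measured 15.1 and 6.72 FPKM in Aged, and 0.0619 FPKM and 0 in Aged + Unsorted. Utrn, the dystrophin relative utrophin, measured 29.0 and 13.4 FPKM in Aged and 1.70 and 1.32 FPKM in Aged + Unsorted. Itga6, an integrin chain of the oocyte surface, was above both Aged libraries, with 29.5 and 26.5 FPKM in Aged and 45.0 and 73.4 FPKM in Aged + Unsorted.

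Markers of other ovarian cells were low in all 4 libraries. The summed FPKM of 15 granulosa and cumulus markers was 32.5 and 18.9 in Aged and 24.2 and 27.3 in Aged + Unsorted, with 6 to 11 markers listed at 0 in each library. The sum of 8 immune cell markers was 48.4 and 64.7 in Aged and 0.303 and 6.495 in Aged + Unsorted, and that of 8 luteal and thecal markers was 27.1 and 31.9 in Aged and 3.09 and 19.2 in Aged + Unsorted. The immune and luteal sums were thus lower in both Aged + Unsorted libraries, and the sums of the 15 granulosa markers overlapped. A wider set held 90 genes, high in the granulosa libraries and low in Young oocytes. It summed to 1203 and 771 FPKM in Aged and 299 and 307 FPKM in Aged + Unsorted, lower in both. Gm-number genes took 23.4% to 97.9% of TPM in those granulosa libraries, and the set was not limited by gene type. Of its 66 tested genes 7 lay above both Aged libraries and 9 below, and the median log2 difference was -1.09 against Aged replicate 1 and 0.29 against Aged replicate 2. Ptprc, the leukocyte antigen CD45, measured 11.7 and 6.15 FPKM in Aged, and 0.136 FPKM and 0 in Aged + Unsorted (limma adjusted p = 0.0926). Cd3e, a chain of the T cell receptor complex, was listed at 0 in 3 libraries and stood at 35.8 FPKM in Aged replicate 2. Cyp17a1, the thecal androgen enzyme, measured 4.05 and 25.4 FPKM in Aged and was listed at 0 in both Aged + Unsorted libraries (limma adjusted p = 0.119). Stromal markers summed to 34.8 and 0.974 FPKM in Aged and 0.402 and 7.24 FPKM in Aged + Unsorted, endothelial markers to 26.1 and 2.2 FPKM and to 6.32 and 7.77 FPKM, and surface epithelium markers to 49.7 and 2.84 FPKM and to 0.228 and 5.77 FPKM. Red blood cell markers were at 0 and 28.2 FPKM in Aged, the latter from the alpha-globin genes, and at 0.314 FPKM and 0 in Aged + Unsorted. The part of such cells in the lower immune and thecal genes was not tested.

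Receptors of smell, which an oocyte is not known to use at this breadth, gave a measure of the low signal in each library. The summed FPKM of 1094 olfactory receptor genes was 3651 and 1016 in Aged and 620.0 and 123 in Aged + Unsorted. Of the 359 that were tested, 93 lay below both Aged libraries and 2 above, with a median log2 difference of -2.78 against Aged replicate 1 and 0.00 against Aged replicate 2. Of 78 tested vomeronasal receptor genes, 28 lay below and 2 above. Both receptor families had their highest summed FPKM in Aged replicate 1 and their lowest in Aged + Unsorted replicate 2. Aged replicate 1 also had 6536 tested genes at 1 FPKM or more that were listed at 0 in the other 3 libraries, against 464 in Aged replicate 2 and 133 and 599 in Aged + Unsorted.

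Stress and maintenance genes had members on both sides. Of 28 antioxidant genes, 6 lay above both Aged libraries and 4 below, and the median of -0.27 was 0.02 against Aged replicate 2 and 0.34 with quantile normalization. Sod1, the cytosolic superoxide dismutase, measured 236 and 3951 FPKM in Aged and 3428 and 5197 FPKM in Aged + Unsorted, an overlap. Gpx1, a glutathione peroxidase, measured 16.5 and 39.0 FPKM in Aged, and 0 and 10.4 FPKM in Aged + Unsorted, below both. Of 25 genes of NAD metabolism and sirtuins, 2 lay above and 5 below, and the median of -0.39 was -1.27 against Aged replicate 1, 0.04 against Aged replicate 2 and 0.10 with quantile normalization. Sirt1, a nuclear deacetylase, measured 2.63 and 3.96 FPKM in Aged and 32.3 and 14.5 FPKM in Aged + Unsorted, and Sirt5, a mitochondrial deacylase, measured 8.23 and 8.84 FPKM in Aged and 72.7 and 11.5 FPKM in Aged + Unsorted. Nmnat3, which makes NAD in mitochondria, measured 7.35 and 19.5 FPKM in Aged and 0.255 and 1.60 FPKM in Aged + Unsorted (limma adjusted p = 0.143). Sirt1 and Sirt5 were above both Aged libraries and Nmnat3 below both.

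Of 35 DNA damage genes, 10 lay above both Aged libraries and 6 below, and the median of 0.79 was 0.31 against Aged replicate 1, -0.09 against Aged replicate 2 and -0.11 with equal sums. Against Aged replicate 2 alone, 12 of the 35 lay above and 11 below. Chek1, the replication checkpoint kinase, measured 9.97 and 61.2 FPKM in Aged and 94.1 and 173 FPKM in Aged + Unsorted, above both. Chek2, the double-strand break kinase that removes damaged oocytes, measured 11.8 and 8.73 FPKM in Aged, and 0 and 2.41 FPKM in Aged + Unsorted, below both. Prpf19, a ubiquitin ligase of splicing and repair, measured 12.5 and 12.7 FPKM in Aged and 0.477 and 1.16 FPKM in Aged + Unsorted (log2 difference -2.93 ± 0.65, SE, limma adjusted p = 0.099).

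Among 15 BCL2 family genes, 2 lay above and 1 below, and the median of -0.29 was -1.19 against Aged replicate 1, 0.50 against Aged replicate 2 and 0.28 with quantile normalization, so its sign depended on the Aged library. Bcl2l10, the abundant family member of oocytes, measured 16.1 and 1252 FPKM in Aged and 1704 and 1846 FPKM in Aged + Unsorted. Bcl2l1, an inhibitor of apoptosis, measured 9.93 and 16.7 FPKM in Aged and 55.4 and 34.9 FPKM in Aged + Unsorted, above both as well. Bcl2l2, another inhibitor, measured 6.41 and 7.65 FPKM in Aged, and 0.0321 FPKM and 0 in Aged + Unsorted, below both. Of 12 senescence and inflammation genes tested, 2 lay above and none below, and the median of -0.32 was -1.47 against Aged replicate 1, 0.30 against Aged replicate 2 and 0.47 with quantile normalization. Cdkn1a, the p21 cell cycle inhibitor, stood at 38.7 FPKM in Aged replicate 1 and was listed at 0 in the other 3 libraries.

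The Aged + Unsorted libraries also differed from each other. Of 812 genes with a mean of at least 100 FPKM in the group, 461 (56.8%) were within 2-fold of each other, 146 (18.0%) were over 2-fold higher in replicate 1 and 205 (25.2%) in replicate 2. Paip1, a partner of the poly(A)-binding protein in translation, had 21623 FPKM in Aged + Unsorted replicate 1, 1454 FPKM in replicate 2, and 484 and 1603 FPKM in Aged. Psma7, a proteasome core subunit, measured 2785 FPKM in Aged + Unsorted replicate 1, 680.1 FPKM in replicate 2, and 10.9 and 637 FPKM in Aged. Lsm14b, a repressor of stored messengers, measured 1245 FPKM in Aged + Unsorted replicate 1, 382 FPKM in replicate 2, and 16.9 and 402 FPKM in Aged. For all 3 genes replicate 1 was the highest of the 4 libraries and replicate 2 stood within 1.5-fold of Aged replicate 2.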

How the data were processed

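Per the labels and the study's methods, oocyte RNA was sequenced as polyadenylated RNA. The submitters' processing notes name HISAT2 2.2.1 and StringTie 1.3.3b. The notes name mm9, but 54577 of 55335 gene identifiers carry the version and coordinates of GENCODE M21 (GRCm38), whose coordinates are given here. The deposited tables hold FPKM, TPM and coverage per gene for each library, made by the authors with no pooling of replicates, and hold no counts. Rows that repeat a gene identifier were summed. The ratio of deposited coverage to FPKM over 21693 single-exon genes gave the aligned sequence per library, and it limits the precision of low values.

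The members, gene lists and tests were chosen with earlier results of these data known. log2(FPKM + 1) of 12 oocyte libraries in 5 groups, for genes whose mean reached 1 FPKM, was fitted with limma 3.58.1 (R 4.3.3, moderated, two-sided). The Benjamini-Hochberg adjustment was over all 28004 genes. A run on simulated data used independent normal noise without differences between whole libraries, so it cannot show how the fit handles those. A fold change is on the log2(FPKM + 1) scale and understates the change of low genes. A call needed an adjusted p under 0.05 and a change of over 1.5-fold, following the study's criteria. Genes named were, in each direction, the 15 with the smallest unadjusted p among those with separate groups, a fold change over 1.5, a mean of at least 10 FPKM over the 4 libraries and a symbol that is not a clone name, mitochondrial gene or small RNA, and in each list all markers or up to 4 members of highest mean FPKM and 2 of smallest p. Alternatives changed the pseudocount, filter, unit, scaling, variance model, libraries and replicate block. Equal sums means scaling each library to 1 total outside mitochondrial and Gm-number genes. Tables were handled with Python 3.11.15, numpy 2.4.6, pandas 2.3.3 and matplotlib 3.10.9. The granulosa cell libraries served only to choose gene sets by level. A set of 90 genes had a mean of at least 10 FPKM there that was also at least 10 times the highest Young oocyte value. The set of 1584 genes had a mean of at least 10 FPKM in both cell types. In the reverse set, 20 genes had a Young oocyte mean of at least 10 FPKM and at least 10 times the highest granulosa value. Of these 20, 7 lay above both Aged libraries and 2 below.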

Additional observations from a re-analysis of the deposited data

How the results depend on the processing

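With all libraries and limma, no gene was called, 476 were higher and 1971 lower at an unadjusted p under 0.05. No call was made with a pseudocount of 0.1, a filter at a mean of 10 FPKM, equal sums, the 4 libraries fitted alone, the fit without Aged + LRP1low libraries or a trended and robust variance. Calls numbered 183 with a pseudocount of 10 (13 higher, 170 lower), 864 with no filter (22 and 842), 813 on TPM (22 and 791), 5 with quantile normalization (0 and 5), and 889 without the 4 libraries poor in oocyte RNA. Leaving out 1 library at a time gave 0 to 10678 calls, and 1756 to 13092 genes at an unadjusted p under 0.05. Genes at an unadjusted p under 0.05 numbered 197 with a filter at a mean of 10 FPKM (159 higher, 38 lower), 1229 with quantile normalization (698 and 531), 598 with the 4 libraries alone (308 and 290) and 1406 without Aged + LRP1low libraries (358 and 1048). Without the 4 libraries poor in oocyte RNA, an alternative chosen after seeing the data, they numbered 1392, then 1032 with quantile normalization added and 98 with a filter at a mean of 10 FPKM added, both with 0 calls. The split between higher and lower therefore moved with the scaling, and the cause was not tested.

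The groups share replicate numbers, and the deviations of the libraries with the same number correlated at 0.19 over 28004 genes, in a design of only 2 pairs that share no more than a number. The fit with the replicate block gave 0 calls and 2330 genes at an unadjusted p under 0.05 (520 higher, 1810 lower). Of 3701 values of named genes under the alternatives, 3341 kept their direction and their side of the threshold, 180 turned direction and 180 passed the threshold. Without Aged replicate 1, 34 of 215 turned direction. Of 288 medians of lists, 46 moved. A move had to exceed the gap between the medians against either Aged library, divided by the square root of 2. Leaving out an Aged library can hardly exceed that limit, so the count says little about stability. The median of the zona and oocyte-secreted factors went from 2.71 to 0.09 without Aged replicate 1 and to 5.48 without Aged replicate 2. Neither counted as a move. Depth is known only as aligned sequence, so no interval from counts can be given, and a gene at 0 may be missed.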
